A study of Homo sapiens with 4 samples.

Results

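The intervals described here form small clusters on 7 human chromosomes that carry few intervals per Mb in a list called from GATA4 CUT&RUN. They were chosen by position from the list of intervals common to 4 CUT&RUN libraries of PaTu8988S, an established line of a pancreatic adenocarcinoma. On chromosomes 2, 4, 5, 6, 9, 10 and 12, intervals separated by gaps of 12.5 kb or less were linked, and those in clusters of 3 to 19 intervals were kept. This gave 762 intervals in 136 clusters, out of 21308 intervals in the whole list and 4473 on these chromosomes. The rule thus fixed the gaps and the cluster sizes, which are given below as a description, and no test was made of them.

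GATA4 is a zinc-finger transcription factor that binds DNA at short sites built around the letters GATA and is known for its part in the development of endoderm-derived organs and the heart. It often works beside its paralogue GATA6, and the series title ties loss of both to loss of a "classical" programme in pancreatic ductal adenocarcinoma. In chromatin profiling, neighbouring occupied sites are commonly stitched across gaps of up to 12.5 kb into larger units, since regulatory elements of a gene can be spread over many kb. Sequence beside centromeres and at chromosome ends is rich in repeats and duplicated segments, where short reads are harder to place.

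The 4 libraries formed 1 group, with no other genotype, treatment or time. Each used 500000 cells and 10 ug of the anti-GATA4 antibody MAB2606, and the DNA released by the antibody-bound nuclease was sequenced in pairs. Whether the 4 libraries came from separate cultures is not given in the sources used here, and no control library was analysed. The list gives a chromosome, a start and an end for each interval in build hg19, with neither a score nor a value per library, so read depth is unknown and the spread between libraries could not be measured. The 95% intervals given below come from counting positions along the genome, not from replicates. They treat positions as independent, whereas members enter in linked groups and clusters often lie close together, so they are too narrow. No hg19 sequence or annotation was used, so no member is assigned to a gene and no sequence is shown.

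The word sparse held for these chromosomes, although they were not the sparsest of all. They carried 3.19 to 4.78 intervals per Mb, between chromosome 6 and chromosome 12, which are places 3 to 9 of 23 from the lowest. The other 16 chromosomes (15 autosomes and X) ran from 1.70 per Mb on X to 29.3 on chromosome 20, and X and chromosome 22 alone lay below the 7. Small clusters held 17.0% of the intervals of the 7 chromosomes (Wilson interval 16 to 18.2%) and 25.9% of those of the other chromosomes. By chromosome, the share ran from 13.1 to 22.2% on the 7 and from 12.2 to 41.5% on the others. It was 14.1% on chromosome 18, with 14.2 intervals per Mb, and 35.9% on chromosome 22, with 2.22 per Mb. Intervals in clusters of 20 or more do not count in these shares, and the difference was not tested. The members covered 766 kb, which is 25.5% of all bp covered on the 7 chromosomes.

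Chromosome 12 had the highest share of its intervals in small clusters, with 142 members in 21 clusters (22.2%). Chromosome 9 followed with 110 members in 16 clusters (20.4%) and chromosome 10 with 109 in 18 (19.8%). Chromosome 4 had 97 members in 14 clusters (15.5%), chromosome 5 had 98 in 24 (15.5%) and chromosome 6 had 82 in 19 (15.1%). Chromosome 2 had the lowest share, 124 members in 24 clusters (13.1%). As members enter these shares in groups of 3 to 19, the differences between chromosomes were not tested. Per 10 Mb, clusters numbered from 0.733 on chromosome 4 to 1.57 on chromosome 12.

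The clusters fell into 3 kinds of place. On 6 of the 7 chromosomes 1 stretch of at least 2.5 Mb without any interval was flanked by 50 or more intervals within 1 Mb of its edges. These stretches ran from 92304170 to 95475019 on chromosome 2, 49657343 to 52669522 on chromosome 4, 46405385 to 49408432 on chromosome 5, 45364020 to 66459247 on chromosome 9, 39152335 to 42403107 on chromosome 10 and 34853738 to 37876513 on chromosome 12. The remaining 48 such stretches had at most 19 intervals beside them, while the 6 had 55 or more. Whether the 6 are centromere gaps of the build was not checked, and intervals of the members themselves are among those that flank them.

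Within 5 Mb of a flanked stretch lay 45 clusters with 365 members, which is 47.9% of the members. A further 16 clusters with 102 members (13.4%) lay within 1 Mb of their chromosome's first or last interval. The other 75 clusters, called interior here, held 295 members (38.7%). In all, 33.1% of the small clusters lay beside a flanked stretch (Wilson interval 25.7 to 41.4%), against 6.37% of pairs of linked intervals (4.16 to 9.63%) and 5.69% of isolated intervals (4.85 to 6.66%) on the same chromosomes. The ground within 5 Mb of the 6 stretches makes up 5.18% of the length between first and last intervals, stretches left out. At chromosome ends stood 11.8% of the small clusters (7.37 to 18.3%), 3.82% of pairs and 3.00% of isolated intervals. The ground at chromosome ends makes up 1.21% of the same length, so pairs and isolated intervals also exceeded it. Among the 18 clusters of 20 or more intervals on these chromosomes, 12 lay beside a flanked stretch, 3 at a chromosome end and 3 in the interior. The share beside a flanked stretch depended on the reach. Within 2 Mb it was 27 small clusters (19.9%), against 2.87% of pairs and 2.61% of isolated intervals, and on chromosome 12 the clusters beside the stretch numbered 4 in place of 14. Within 10 Mb it was 51 small clusters (37.5%), against 10.5% of pairs and 10.6% of isolated intervals. The definition of the places was chosen after seeing the data.

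**Figure D1:**
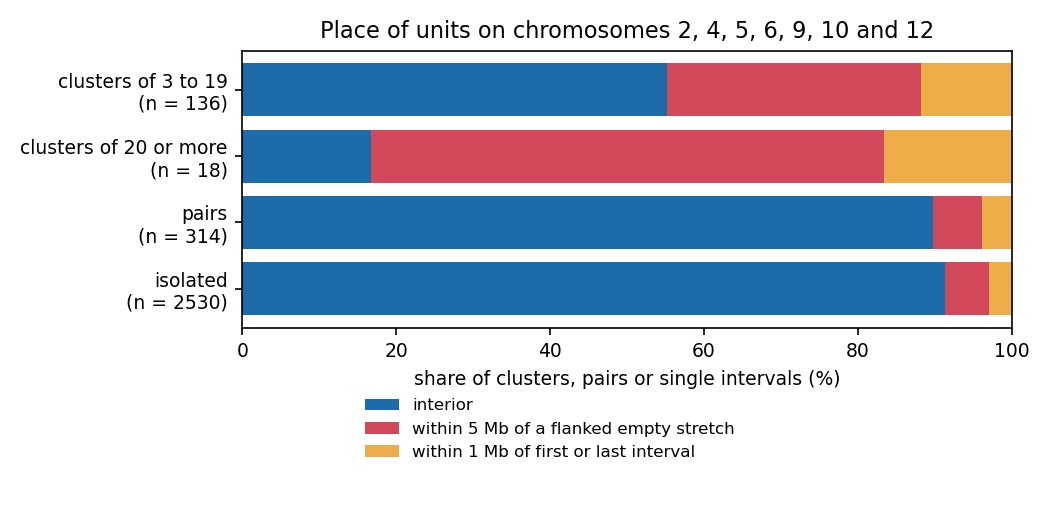
The bars give the share, in percent, of clusters of 3 to 19, clusters of 20 or more, pairs and isolated intervals that lay in each kind of place on the 7 chromosomes, with the number of each in brackets. Interior places hold 55.1% of the small clusters, against 91.3% of isolated intervals. Flanked stretches were defined by crowded intervals, which link more readily, so this difference is partly built in.

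The 7 chromosomes differed in this mix. With a reach of 5 Mb, 14 of 21 clusters of chromosome 12 (103 of 142 members) lay beside the flanked stretch, and 4 were interior. Chromosome 10 had 8 beside it and 8 in the interior, and chromosome 9 had 7 of each. On chromosome 5, 19 of 24 clusters were interior, and on chromosome 2, 16 of 24. Chromosome 6 had no flanked stretch by this definition, so 16 of its 19 clusters count as interior. Its empty stretch from 58775911 to 61896974 had 12 intervals within 1 Mb of its edges, and 4 clusters with 26 members lay within 5 Mb of it. The last of these, from 61896974 to 61912598 with 9 intervals, begins at the first position after that stretch.

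The place went with the number of intervals in a cluster. Both rest on how closely intervals lie, since a flanked stretch was defined by the intervals around it. This link is thus partly built in and was not tested. Of 67 clusters of exactly 3 intervals, 55 were interior (82.1%), as were 11 of 28 clusters of 4 to 5 (39.3%), 6 of 21 clusters of 6 to 9 (28.6%) and 3 of 20 clusters of 10 to 19 (15%). The median cluster held 3 intervals in the interior, 7 beside a flanked stretch and 4.5 at chromosome ends. Clusters of 3 had a median length of 12.4 kb and those of 10 to 19 of 36.6 kb, and length grows with the number of linked intervals by construction.

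A pair of neighbouring clusters on chromosome 2 exceeded all others in covered bp. The cluster from 16115614 to 16247781 held 7 intervals that covered 114887 bp, or 86.9% of its length. The cluster from 15848409 to 15948128 held 5 intervals that covered 94229 bp, or 94.5%. Together they held 12 of the 762 members and 27.3% of all bp the members covered.

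The members of the cluster from 15848409 measured, in order along the chromosome, 12005, 19189, 16561, 14260 and 32214 bp, and were separated by 23, 3326, 24 and 2117 bp. Those of the cluster from 16115614 measured 14050, 6572, 11662, 15608, 18378, 28747 and 19870 bp, separated by 44, 28, 77, 5553, 38 and 11540 bp. Thus 6 of the 10 gaps in the 2 clusters were under 100 bp, and each cluster could be read as a few longer stretches parted by such gaps. The clusters lay 167 kb apart, but other intervals lay nearer. The nearest outside interval was 20.1 kb from the cluster from 15848409. For the cluster from 16115614 it was 14.6 kb away, between the 2 clusters. Within 500 kb of their edges lay 14 and 17 other intervals, those of the other cluster included. The members of both were at least 6572 bp wide, against a maximum of 5839 bp among the other 283 interior members. Very wide intervals were not confined to clusters, however. Isolated intervals of the chromosomes described here included 10 of 5 kb or wider, and the widest, in the interior, measured 24658 bp. Pairs and clusters of 20 or more on these chromosomes held no interval of 5 kb or wider.

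The cluster ranked 3 in covered bp lay on chromosome 4 from 49102614 to 49177975, within 5 Mb of the flanked stretch. Its 13 intervals covered 38023 bp (50.5%). Its widths were uneven: intervals of 14085, 5381 and 10632 bp stood among 10 others of 206 to 2147 bp. The ratio of its widest to its narrowest member, 68.4, was the highest of the 136 clusters, whose median ratio was 2.64. Besides these clusters, 1 other held an interval of 5 kb or wider, on chromosome 2 from 133021757 to 133054180, where an interval of 5839 bp stood among 6.

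The remaining clusters among the 10 with most covered bp had no such wide intervals. On chromosome 9, the cluster from 66459247 to 66520849 began where the empty stretch ends, and its 18 intervals covered 21025 bp (34.1%) with widths of 358 to 3804 bp. The cluster of chromosome 12 from 31125281 to 31195339 held 19 intervals over 20831 bp (29.7%), with widths of 299 to 4446 bp. The cluster of chromosome 4 from 191020804 to 191043682 ended with that chromosome's last interval, and its 13 intervals covered 14641 bp (64.0%). On chromosome 9, 19 intervals from 68668909 to 68745723 covered 13452 bp (17.5%), none of them wider than 1065 bp. On chromosome 12, 12 intervals from 60794 to 95743 covered 12403 bp (35.5%) and included the first interval of that chromosome. On chromosome 5, 10 intervals from 753566 to 787104 covered 11630 bp (34.7%).

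The cluster ranked 7 in covered bp stood alone in the interior of chromosome 9. It ran from 115823028 to 115852518 and held 11 intervals that covered 14308 bp (48.5%). Its members were even in width, from 766 to 1907 bp with a median of 1296 bp, and 10 of the 11 were 1 kb or wider. Of its 10 gaps, 5 were 6 to 49 bp and the largest was 6839 bp. The nearest interval outside lay 257 kb away, and 3 intervals in all lay within 500 kb of its edges. Of the 10 clusters with most covered bp, this cluster and the 2 of chromosome 2 near 16 Mb were interior, 4 lay beside a flanked stretch and 3 at a chromosome end.

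**Figure D2:**
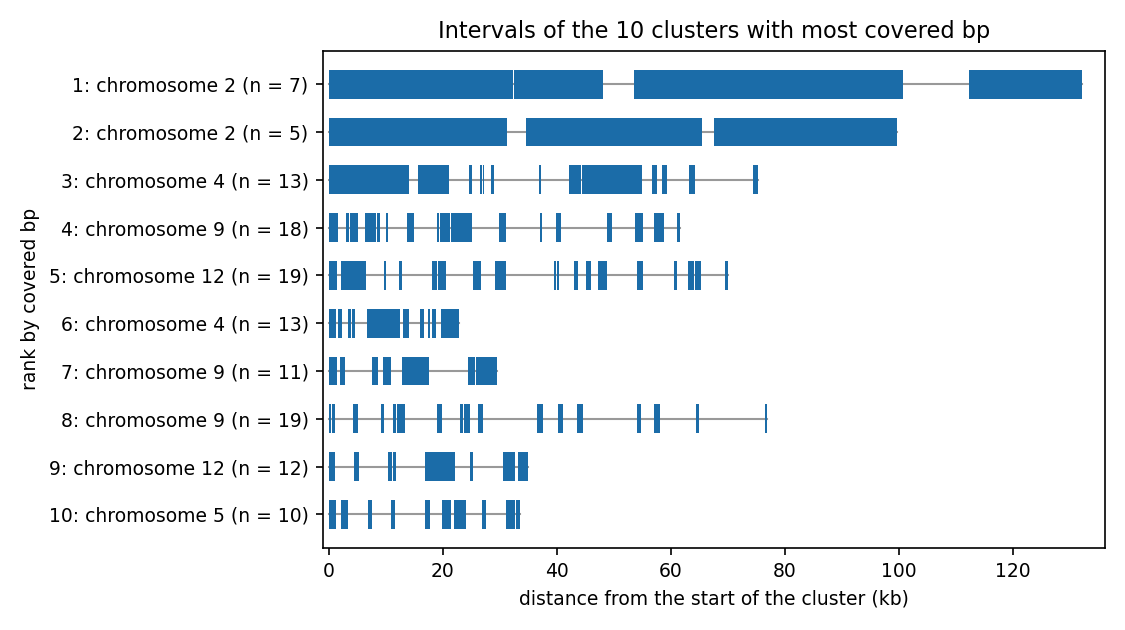
Each row is 1 of the 10 clusters with most covered bp, drawn from its own start in kb along the x axis, with intervals as blocks and the cluster's full length as a line. The blocks of the 2 clusters of chromosome 2 fill 86.9% and 94.5% of their length, while those of the other 8 fill between 17.5% and 64.0%.

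Further clusters led their own chromosome. On chromosome 6, 11 intervals from 161033586 to 161067530 covered 10566 bp (31.1%), with widths of 430 to 2027 bp, and 2 intervals lay within 500 kb outside. Beyond its end no interval was listed for 5.31 Mb. On chromosome 10, 13 intervals from 127577158 to 127615864 covered 9027 bp (23.3%), with 2 intervals within 500 kb outside. On chromosome 5, the cluster with the widest member of that chromosome ran from 21478922 to 21497335, with 6 intervals of 257 to 3221 bp, and had no other interval within 500 kb. These 3 clusters and the cluster from 115823028 on chromosome 9 had 0 to 3 other intervals within 500 kb. Ground this empty was not particular to them, as the lower quartile over the 75 interior clusters was 3.

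Clusters with most intervals on their chromosome were not always those with most covered bp. On chromosome 10 the cluster with most, from 42790716 to 42816959, held 16 narrow intervals with a median width of 270.5 bp and none over 972 bp, which covered 5546 bp (21.1%). On chromosome 2 it ran from 90399584 to 90457558, with 15 intervals of 359 to 1619 bp over 11440 bp (19.7%). On chromosome 4, 16 intervals from 190796505 to 190846116 covered 9173 bp (18.5%), with a median width of 530 bp.

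**Figure D3:**
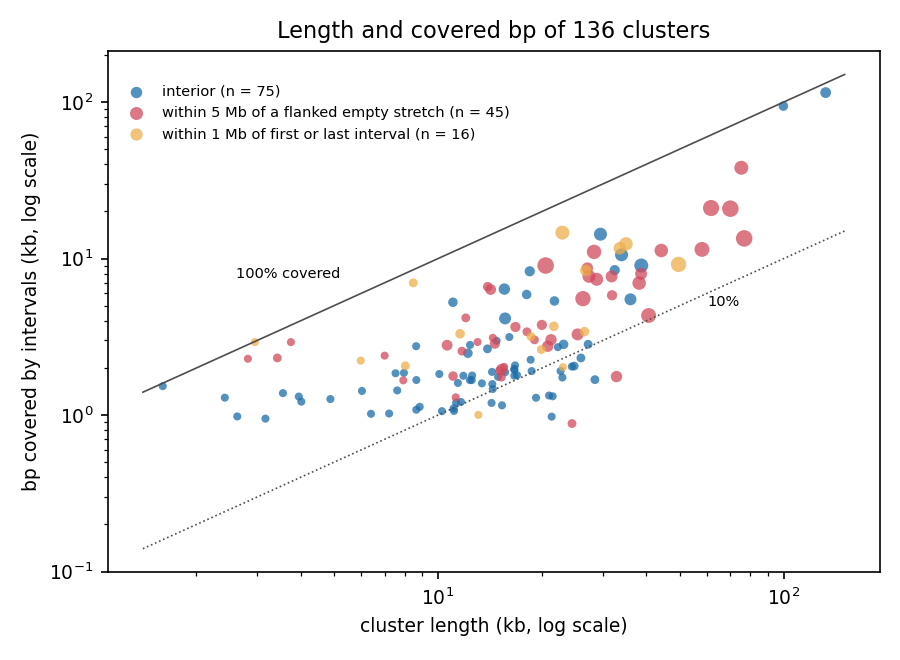
Each point is 1 of the 136 clusters, with its length on the x axis and the bp its intervals cover on the y axis, both in kb on log scales, colour for the place and point area growing with the number of intervals. The 2 points at the upper right, near the line of full cover, are the clusters of chromosome 2 with 94229 and 114887 covered bp.

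Clusters were mostly gap. The median cluster was 15.6 kb long, from 1.60 to 132 kb, and its intervals covered 18.9% of it, with quartiles of 12 and 30.1% over clusters. The median share was 14.1% for interior clusters, 21.1% for those beside a flanked stretch and 27.1% for those at chromosome ends. It also rose with cluster size, from 13.2% in clusters of 3 to 28.9% in those of 10 to 19. Clusters of 3 made up 55 of 75 in the interior, 8 of 45 beside flanked stretches and 4 of 16 at chromosome ends. Place and size were not separated here. In 11 clusters the intervals covered more than 50% and in 6 more than 80%. At the other end of the size range from the chromosome 2 clusters, 12 clusters were shorter than 5 kb. The shortest, on chromosome 5 from 2145455 to 2147053, held 3 intervals over 1598 bp (95.7% covered), and that on chromosome 6 from 340595 to 343545 held 3 over 2950 bp (99.2%).

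Members were wider than isolated intervals of the same chromosomes by their medians. The median member was 565 bp wide (95% order-statistic interval 537 to 605 bp), with quartiles of 390 and 895 bp. Isolated intervals had a median of 474.5 bp (463 to 486 bp), pairs of 478 bp (459 to 500 bp) and intervals in clusters of 20 or more of 557 bp (517 to 603 bp). Members of small clusters on the other 16 chromosomes had a median of 681 bp (670 to 696 bp). Intervals of 1 kb or wider made up 19.9% of the members, against 4.94% of isolated intervals and 6.05% of pairs. Over all intervals of the autosomes and X this share was 18.2% and the median width 586 bp, so the members lay close to the list as a whole. These are descriptions over intervals of 1 pooled list, and a wider interval also shortens the gap that the rule used.

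Member widths showed no steady trend with the number of intervals per cluster. The median was 496 bp in clusters of 3, 623 bp in clusters of 4 to 5, 506 bp in clusters of 6 to 9 and 640 bp in clusters of 10 to 19. Among interior clusters alone, members of clusters of 3 had a median of 479 bp (446 to 518 bp, n = 165), and interior isolated intervals 472 bp (460 to 484 bp, n = 2310), so their intervals overlapped. Interior members of clusters of 4 to 19, without the 2 clusters of chromosome 2 near 16 Mb, had a median of 683.5 bp (559 to 764 bp, n = 118), and 27.1% of them were 1 kb or wider, against 3.64% in clusters of 3. Members at chromosome ends had the highest median of the 3 places, 745.5 bp (646 to 841 bp, n = 102), while isolated intervals there had 604 bp (481 to 737 bp, n = 76). Intervals in pairs there had 749.5 bp (n = 24) and those in clusters of 20 or more 815.5 bp (n = 138). The high median at chromosome ends was therefore not particular to small clusters. Beside flanked stretches the medians were 537 bp for members (493 to 585 bp, n = 365) and 469 bp for isolated intervals (438 to 523 bp, n = 144). They were 542.5 bp for pairs (n = 40) and 469.5 bp for clusters of 20 or more (n = 350) there. The median width of a cluster exceeded the isolated median of its own chromosome in 47 of 75 interior clusters, 29 of 45 beside a flanked stretch and 15 of 16 at chromosome ends.

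**Figure D4:**
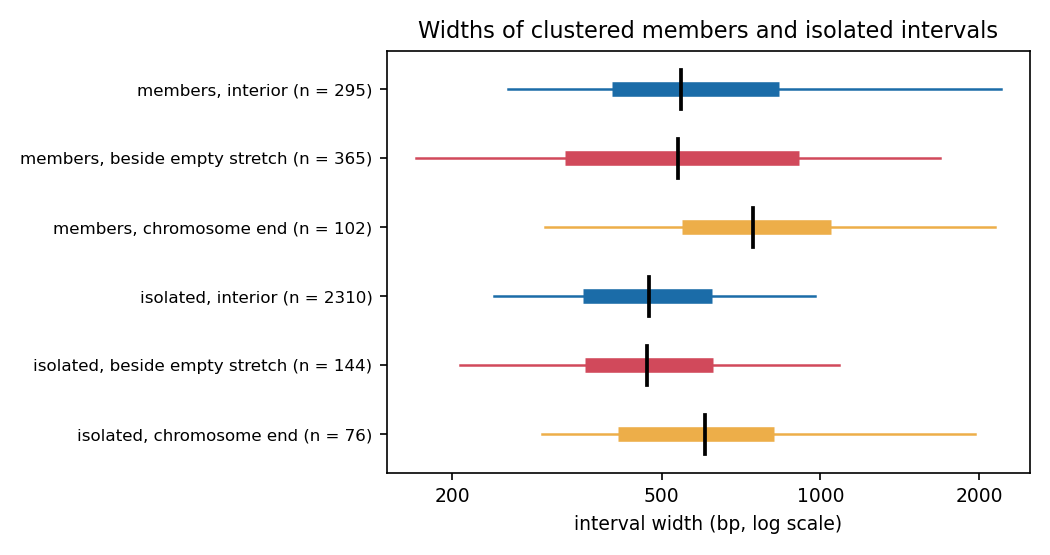
Interval widths in bp on a log scale are shown for members and for isolated intervals in each kind of place. Each tick is a median, the thick bar spans the quartiles and the thin line the 5th to 95th percentile. The upper quartile of interior members, 834.5 bp, lies beyond that of interior isolated intervals, 622 bp.

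Widths beside the flanked stretches differed by chromosome. Members there had a median of 234 bp on chromosome 5 (n = 15) and 334 bp on chromosome 10 (n = 65). These lay below the isolated medians of those whole chromosomes, all places together, 485 and 490 bp. The 15 members of chromosome 5 came from 3 clusters within 131 kb. On chromosome 2 (n = 63) the median was 630 bp and on chromosome 9 (n = 73) 670 bp, above isolated medians of 474 and 477.5 bp. Chromosomes 4 (n = 46) and 12 (n = 103) had 559.5 and 509 bp, also above their isolated medians of 438 and 468 bp. In the interior the medians ran from 369 bp on chromosome 4 (n = 15) to 800.5 bp on chromosome 9 (n = 30, of which 11 belong to the cluster from 115823028). The narrowest member of all, 69 bp, lay beside the flanked stretch of chromosome 5.

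How alike members of a cluster were in width was described by the intraclass correlation of log2 width, which is 0 where members of a cluster are no more alike than members of different clusters. It was 0.492 over the 136 clusters and 0.293 without the 2 clusters of chromosome 2 near 16 Mb. It was 0.328 beside flanked stretches, 0.235 at chromosome ends and 0.689 in the interior, but 0.226 in the interior without those 2 clusters. Members of a cluster share their place and library pool, and no test was made. The widest member of a cluster of 3 was the middle interval in 23 of 67 clusters (34.3%) and an outer interval in the others. That is about the share that 3 equal positions would give.

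Gaps inside clusters spanned the whole allowed range. Of 626 gaps the median was 2195.5 bp, with quartiles of 615 and 5030 bp. Gaps of 100 bp or less numbered 78 (12.5%) and occurred in 42 clusters, and 205 gaps (32.7%) were 1 kb or less. The median gap was 3514 bp in interior clusters, 1587 bp beside flanked stretches and 1861.5 bp at chromosome ends, while gaps of 100 bp or less made up 11.4%, 12.2% and 16.3% in these places. Over all 4466 gaps of the 7 chromosomes the median was 56.7 kb, and 1475 gaps were short enough to link.

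**Figure D5:**
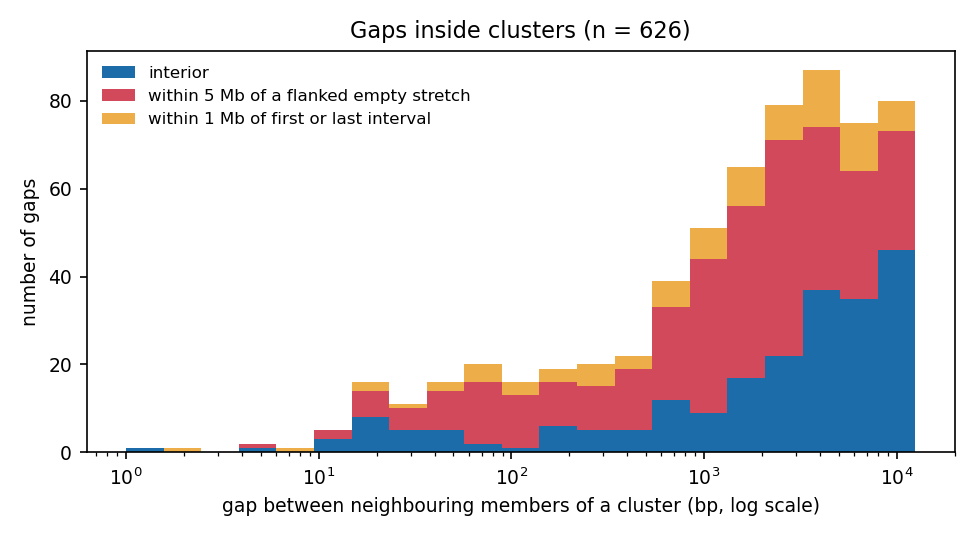
The histogram counts the 626 gaps between neighbouring members of a cluster by size in bp on a log scale, stacked by place. Most gaps lie above 1 kb, and a tail of 78 gaps reaches down to 100 bp or less.

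The values on either side of the limits of the rule were close. The widest gaps that still linked intervals measured 12359, 12103 and 12011 bp, on chromosomes 5, 12 and 12, and the narrowest that did not measured 12549, 12563 and 12568 bp, on chromosomes 4, 10 and 12. Clusters of 19 intervals, the largest kept, covered 20831 bp (chromosome 12 from 31125281), 13452 bp (chromosome 9 from 68668909) and 9023 bp (chromosome 12 from 34833265 to 34853738). The smallest left out, with 20 intervals, ran from 9324645 to 9370783 on chromosome 4 and covered 22638 bp. Those with 21 intervals covered 19992 bp on chromosome 4 from 9213208, 16431 bp on chromosome 2 from 89830446 and 14969 bp on chromosome 2 from 92243239.

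Of the 136 small clusters, 83 (61.0%, Wilson interval 52.6 to 68.8%) lay within 1 Mb of another. The share was 43 of 45 beside flanked stretches, which are crowded by definition, 14 of 16 at chromosome ends and 26 of 75 in the interior. No such share is given for pairs or isolated intervals, so the 61.0% has no value to be set against. The linking limit also parts neighbours by itself. Clusters lay only 12574 bp apart at 90399584 on chromosome 2 and 12793 bp apart at 31125281 on chromosome 12. Joined across 1 Mb, the 136 clusters formed 81 groups, of which 53 were single clusters. The largest group ran from 30975479 to 32927088 on chromosome 12, with 11 clusters and 68 members over 1.95 Mb. A group on chromosome 4 from 49102614 to 49616600 held 5 clusters with 46 members. The largest group in the interior, on chromosome 5 from 175340924 to 176919745, held 5 clusters with 16 members over 1.58 Mb, all of 3 or 4 intervals, and their intervals covered 8.38 to 22.7% of each.

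Surroundings are given by place, but a flanked stretch was defined by the intervals around it, so crowded ground there is no finding. The nearest interval outside a cluster lay at a median of 56.8 kb for interior clusters, 18.2 kb beside flanked stretches and 39.4 kb at chromosome ends. Within 500 kb of its edges a cluster had a median of 6 other intervals in the interior (quartiles 3 and 11), 41 beside a flanked stretch and 13.5 at a chromosome end. Isolated intervals of the same chromosomes had a median of 4 others within 500 kb (quartiles 2 and 7). Within 1 Mb of a cluster of 20 or more lay 20 of the 45 small clusters beside flanked stretches, against 2 of 75 in the interior.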

How the data were processed

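The members, lists and measures were chosen with earlier results of these data known. Per the labels, the deposited list holds the peaks common to 4 GATA4 CUT&RUN libraries. Its values are start and end positions in bp, deposited without a score. The submitters' processing notes name the peak caller SEACR, the annotation package HOMER and build hg19. Not given in the sources used here are versions, parameters, any filter on repeat regions and the overlap that made a peak common.

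Widths are end minus start, gaps are start minus the previous end. No intervals overlapped (0). Linking, medians, Wilson intervals of shares and binomial order-statistic intervals of medians were computed with pandas 2.3.3, numpy 2.4.6 and scipy 1.17.1 under Python 3.11.15, and plots with matplotlib 3.10.9. Linking was checked on simulated clusters. With 1 pooled list no test over samples was possible. Density per Mb is over the distance from first to last interval. Clusters named are the 10 with most covered bp and, per chromosome, those with most covered bp, most intervals and the widest member. Alternatives were other linking distances, merging, size limits and width. Motifs, promoters and genes need an hg19 reference and were not run.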

Additional observations from a re-analysis of the deposited data

How the results depend on the processing

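Of 61 recomputed values, 30 stayed within 1.5 times (counts) or within the 95% interval (shares and medians), and 31 moved further. Those intervals are too narrow, as said above. Alternatives that keep only a part of the main clusters lower the counts by construction, so the tally is no measure of robustness. Restriction to interior clusters, leaving out the 2 clusters of chromosome 2 near 16 Mb and the other distances for places were chosen after seeing the data. Clusters, 136 above, numbered 76 among intervals at or above the median width of the list (586 bp), 69 with 4 to 19 intervals and 75 in the interior. Members, 762 above, numbered 430 at or above that width, 482 in clusters of 3 to 9 and 295 in the interior. Their share of intervals, 17.0%, was 19.7% when gaps of up to 5 kb were linked, 19.4% for gaps of up to 25 kb, 26.6% at or above the median width, 12.5% with 4 to 19, 10.8% with 3 to 9 and 6.60% in the interior. The median width, 565 bp, was 763.5 bp after merging intervals within 1 kb, 971.5 bp at or above the median width and 525.5 bp with 3 to 9. The first of these widens and the second selects by construction. The median covered share, 18.9%, was 36.0% with 5 kb, 10.1% with 25 kb, 30.1% at or above the median width, 21.9% with 4 to 19 and 14.1% in the interior. The median gap, 2195.5 bp, was 1005.5 bp with 5 kb, 3891.5 bp with 25 kb, 3476 bp after merging, 1783.5 bp with 4 to 19, 3109 bp with 3 to 9 and 3514 bp in the interior. The share within 1 Mb of another cluster, 61.0%, was 81.6% with 5 kb, 73.7% at or above the median width, 75.4% with 4 to 19 and 34.7% in the interior. Interior clusters, 75 above, numbered 93 when a flanked stretch reached 2 Mb, 69 when it reached 10 Mb and 66 when a chromosome end reached 5 Mb. Clusters beside a flanked stretch, 45 above, numbered 27 with a reach of 2 Mb and 51 with 10 Mb. Beyond the construction of each alternative, the cause was not tested. No paired analysis was possible because the 4 libraries form 1 group and are pooled in the list; for the same reason no library could be left out. Motif and promoter alternatives were not run. Depth is unknown, so a gap shows only that no common interval was listed there.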
